A study of Mus musculus with 2 samples.

Results

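The 5 genes Junb, Ier2, Zfp36l1, Dusp4 and Tgif1 each have one of the widest DNaseI sites of a mouse lymphoma in a window of 60 to 130 kb around them. The windows were selected on measured values, namely the width of the sites in this same list, so the widths of the 5 wide sites are given as a description and nothing is tested with them. Of the 53593 sites of the list, 56 overlapped the 5 windows: the 5 wide sites and 51 neighbours. The tumour, called T6, came from an Eμ-myc mouse on the C57/Bl6 background with the genotype Arf-/- Trp53+/+, so that p53 was intact by genotype. Whether p53 was functional in the tumour was not tested. The tumour was untreated, and its cells were taken from lymph nodes and not purified, so other cells of the node could be present. In this model Myc is expressed in B cells from a transgene with the Eμ enhancer of the immunoglobulin heavy chain. The series has 2 libraries of this tumour, DNaseI and input, with 1 sample each. The input was not analysed here. With 1 library there was no replicate, so no value below has an error between samples, and no test between conditions could be made.

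DNaseI cuts DNA where nucleosomes are absent or displaced, and a stretch rich in cuts is called as a site. Immediate early genes are genes whose transcription rises soon after a signal reaches the cell, without new protein being made first. Many of them encode transcription factors or proteins that shut the response down again, and in B cells the antigen receptor is one signal that induces them. Junb encodes a subunit of the AP-1 transcription factor. Ier2 encodes a nuclear protein named for this early response. Zfp36l1 encodes a protein that binds AU-rich elements in mRNA and promotes mRNA decay, and it is known to act in B cell development. Dusp4 encodes a phosphatase that inactivates MAP kinases. Tgif1 encodes a homeodomain protein that represses transcription and acts in TGF-β signalling, and it is less often counted among immediate early genes than the other 4. The list holds no expression values, so whether these genes were transcribed in T6 was not tested, and neither was the B cell identity of the sample.

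Positions are mm9, counted from 1. The link from a window to its gene comes from the choice of the windows. An mm9 annotation was not used here, so the start of each gene could not be placed inside or outside its wide site. In RefSeq's annotation of GRCm38.p6, a later assembly, all 5 genes lie on the chromosome of their window. In order of position there, the 3 nearest protein-coding genes on each side of Junb are Rtbdn, Rnaseh2a and Prdx2 before it and Hook2, Best2 and Get3 after it. Ier2 follows Mri1, Ccdc130 and Cacna1a and precedes Nacc1, Trmt1 and Lyl1. Zfp36l1 follows Rdh12, Zfyve26 and Rad51b and precedes Gm52006, Actn1 and Dcaf5. Dusp4 follows Mboat4, Leprotl1 and Saraf and precedes Tnks, Ppp1r3b and Eri1, and Tgif1 follows Zbtb14, Akain1 and Dlgap1 and precedes Myl12b, Myl12a and Myom1. Which of the neighbouring sites belong to these genes was not tested.

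The promoter sequences below show the start regions of the members that the RefSeq promoter table of GRCm38.p6 holds, which are 3 of the 5 genes with 7 starts in all. Each runs from 250 bases before the annotated start to 50 bases after it, in the direction of the gene, and all are on the minus strand of the reference. Their GRCm38.p6 positions were not set against the mm9 sites. Capitals mark exact matches on either strand to the 8 motifs searched, described after the sequences. Junb and Zfp36l1 have 1 annotated start each and Tgif1 has 5, of which the starts with the most and with the fewest G and C bases are shown.
Junb promoter, chr8:84978699-84978998: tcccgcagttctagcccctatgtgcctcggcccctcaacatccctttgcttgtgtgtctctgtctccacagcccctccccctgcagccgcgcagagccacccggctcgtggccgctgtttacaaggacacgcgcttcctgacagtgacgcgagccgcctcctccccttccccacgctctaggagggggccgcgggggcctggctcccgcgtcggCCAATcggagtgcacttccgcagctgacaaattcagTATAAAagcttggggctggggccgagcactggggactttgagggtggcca
Zfp36l1 promoter, chr12:80112964-80113263: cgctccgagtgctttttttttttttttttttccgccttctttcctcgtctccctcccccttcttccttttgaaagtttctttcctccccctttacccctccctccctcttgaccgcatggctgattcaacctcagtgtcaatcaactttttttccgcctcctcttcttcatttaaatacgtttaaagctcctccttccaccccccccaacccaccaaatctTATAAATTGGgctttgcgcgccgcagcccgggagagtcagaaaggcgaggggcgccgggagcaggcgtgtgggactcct
Tgif1 promoter at the third start, chr17:70851161-70851460: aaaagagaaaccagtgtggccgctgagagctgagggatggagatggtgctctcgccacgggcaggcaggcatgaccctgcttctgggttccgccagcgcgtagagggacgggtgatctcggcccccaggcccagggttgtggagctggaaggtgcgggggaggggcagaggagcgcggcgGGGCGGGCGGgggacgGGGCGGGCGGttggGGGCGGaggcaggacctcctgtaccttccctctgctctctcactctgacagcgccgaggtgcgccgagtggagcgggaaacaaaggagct
Tgif1 promoter at the fifth start, chr17:70846728-70847027: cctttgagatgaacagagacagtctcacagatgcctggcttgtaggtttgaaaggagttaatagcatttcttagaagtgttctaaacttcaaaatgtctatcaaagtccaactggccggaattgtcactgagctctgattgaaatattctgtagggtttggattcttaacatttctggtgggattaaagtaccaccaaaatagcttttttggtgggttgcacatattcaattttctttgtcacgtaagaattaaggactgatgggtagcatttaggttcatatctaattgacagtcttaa

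The Junb and Zfp36l1 promoters both held the TATA motif (TATAAA), which binds the TATA-binding protein, and the motif of the factor NF-Y (CCAAT). The TATA motif occurs in 13.6% of the 32851 promoters of the table and the NF-Y motif in 37.4%. In Junb, CCAAT stood at positions -36 to -32 and TATAAA at 1 to 6, counting the annotated start as 1 with no position 0. In Zfp36l1, TATAAA stood at -29 to -24 and CCAAT, on the other strand, at -24 to -20, so that the 2 matches share 1 base. Tgif1, whose starts are counted in the direction of the gene, lacked TATAAA at all 5 and had CCAAT at the second. At the third start it had 5 GC boxes (GGGCGG), which Sp1 binds, some of them overlapping, and at the fourth start 1. A GC box occurs in 35.7% of promoters. None of the 7 promoters held the cyclic AMP response element TGACGTCA (1.79% of promoters), the AP-1 motif TGAGTCA (5.20%), the E-box CACGTG bound by Myc (7.15%), the Ets motif CCGGAAG (8.86%) or the CArG box of serum response factor (1.63%). These are counts of letters in short windows and say nothing about binding.

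The members' promoters were richer in CpG than the middle of the table, except at the last start of Tgif1. The observed over expected CpG ratio was 0.666 at Junb, 0.840 at Zfp36l1 and 0.698 to 0.807 at the first 4 starts of Tgif1, against a median of 0.384 over all promoters. At the fifth start of Tgif1 it was 0.196, with 37.3% G and C, against 68.7% at the third. The 5 starts of Tgif1 span 6.755 kb of GRCm38.p6, and 130 of the 27025 genes in the table (0.481%) have 5 or more starts. Of 38 other immediate early genes listed for comparison, 30 were in the table, with 41 promoters. The CArG box was found at 4 of these 30 genes, Dusp5, Egr2, Srf and Zfp36, against 1.81% of all genes, and the cyclic AMP response element at 3, Btg2, Dusp1 and Maff, against 2.03%. GC boxes were found at 28 of the 30 (38.2% of all genes), the E-box at 8 (8.09%) and TATAAA at 8 (15.7%). The NF-Y motif was found at 13 (41.1%), the Ets motif at 3 (9.93%) and the AP-1 motif at none (5.95%). No test was made of these counts. The median CpG ratio of the 41 promoters was 0.775. Their median share of G and C was 62.0%, against 52.7% over the 32851 promoters of the 27025 genes. The counts were not adjusted for G and C content or for the number of promoters per gene.

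The 5 wide sites measured 6733 bp at Junb, 6274 bp at Ier2, 6186 bp at Zfp36l1, 5716 bp at Tgif1 and 5518 bp at Dusp4. They took places 3, 6, 7, 10 and 12 among the 53593 sites by width, and were 10.2, 9.46, 9.33, 8.62 and 8.32 times the median width of 663 bp. Neither width nor place says how strongly a site was cut, since the list gives no read count or score. The rule took some of the widest sites and not others. Between Junb and Dusp4 in that order, the sites not chosen measured 6662 and 6112 bp on chromosome 17, 5732 bp on chromosome 15, and 6565 and 5543 bp on the mitochondrial chromosome. Just outside, place 13 was a site of 5499 bp on chromosome 10, and 2 wider sites, of 11025 bp on chromosome 12 and 6740 bp on chromosome 7, stood above Junb.

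The places depended on how finely accessible stretches were split into sites. With sites at most 500 bp apart joined, the Junb, Ier2, Zfp36l1 and Dusp4 sites kept their widths, while other regions of the genome became wider. Their places were then 33, 46, 48 and 81 among 44474 regions. The Tgif1 site took in its left neighbour and came to 6531 bp, in place 39. With joining at 1 kb, the Zfp36l1 site came to 8502 bp, in place 39 of 41692 regions, ahead of Junb in place 94. Tgif1 was then in place 111, Ier2 in place 138 and Dusp4 in place 233. All 5 sites thus ranked lower as joined stretches than as single calls.

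**Figure D1:**
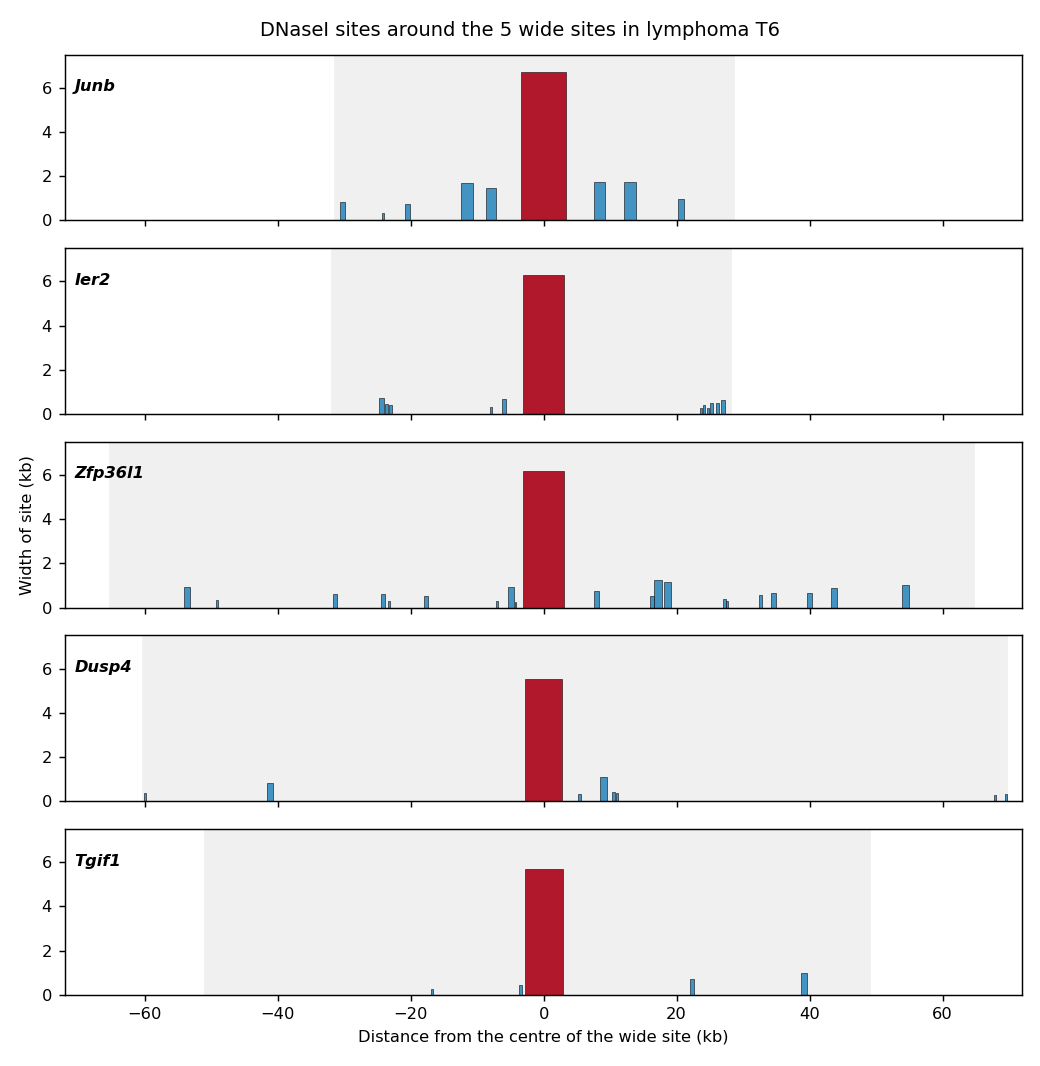
Sites in the 5 windows, each drawn at its distance in kb from the centre of the wide site, with its width in kb both along the horizontal axis and as its height. Wide sites are red, neighbours blue, and the window is shaded. Junb has neighbours wider than 1500 bp on both sides, and the Dusp4 and Tgif1 windows hold 9 and 5 sites.

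At Junb the wide site stood among other wide sites. It covered chr8:87497963-87504695, and the window chr8:87470000-87530000 held 9 sites. To its left lay sites of 1472 bp at a distance of 3.76 kb, 1697 bp at 7.31 kb, 728 bp at 16.8 kb, 314 bp at 20.6 kb and 809 bp at 26.5 kb. To its right lay sites of 1734 bp at 4.16 kb, 1727 bp at 8.79 kb and 952 bp at 16.8 kb. The 2 nearest sites on each side were thus the widest of the neighbours, and the narrower ones lay farther out. Sites covered 26.9% of the window, and 17.7% of what remained of it without the wide site, which were the highest shares among the 5 windows. With sites at most 10 kb apart joined, the Junb site belonged to a group of 19 sites over 110.1 kb (chr8:87452347-87562452), which reached beyond the window on both sides.

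At Ier2 the wide site had an empty flank on its right, and none of its neighbours in the window was wider than 733 bp. It covered chr8:87183611-87189884, and the window chr8:87155000-87215000 held 12 sites. To its left lay sites of 660 bp at 2.47 kb and 301 bp at 4.62 kb, followed by 3 sites of 381, 433 and 733 bp at 19.7 to 20.9 kb. To its right no site was listed for 20.4 kb. There followed 6 sites of 276, 401, 278, 486, 488 and 622 bp within 20.4 to 23.5 kb, the nearest of them chr8:87210311-87210586. None of the 11 neighbours was as wide as 1500 bp, and the widest was the site of 733 bp at chr8:87162015-87162747. Its group at a joining distance of 10 kb held 3 sites over 11.2 kb.

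Ier2 and Junb lie on the same chromosome, and their wide sites were 308.1 kb apart. In GRCm38.p6 there are 17 protein-coding genes between them, among them Klf1, which encodes an erythroid transcription factor, Calr, which encodes the chaperone calreticulin, and Nfix, which encodes a transcription factor. The stretch between the wide sites held 40 sites, whose widths had a median of 763.5 bp and a maximum of 3062 bp. Of the 40, 8 were wider than 1500 bp and 8 narrower than 400 bp. Over all sites of the list, 11.4% were wider than 1500 bp and 30.5% narrower than 400 bp. The stretch thus held a larger share of wide sites and a smaller share of narrow ones than the list, a difference that was not tested. Sites covered 12.45% of the stretch. None of the sites between thus came near the width of those at the ends.

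At Zfp36l1 the wide site had neighbours on both sides over the whole window. It covered chr12:81212130-81218315, and the window chr12:81150000-81280000 held 21 sites. On the left, sites of 249 bp at 0.986 kb, 922 bp at 1.39 kb and 291 bp at 3.81 kb stood close to it, and 6 more of 278 to 919 bp lay 14.3 to 50.1 kb away. On the right, a site of 771 bp lay at 4.43 kb. Next came sites of 523, 1224 and 1151 bp at 12.9 to 14.97 kb, the widest of which was chr12:81231858-81233081, and 7 more of 290 to 1029 bp between 23.9 and 50.8 kb. All 20 neighbours were thus narrower than 1500 bp. The number of sites per 10 kb of window was 1.62 here and 2 at Ier2, and both wide sites had 18 neighbours within 50 kb. Sites covered 14.6% of the window (22.3% within 30 kb either side of the wide site), and 10.3% of what remained of it without the wide site. The group of sites at most 10 kb apart held 15 sites over 62.1 kb.

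At Dusp4 the neighbours lay on one side. The wide site covered chr8:35867509-35873026, and the window chr8:35810000-35940000 held 9 sites. To the left the nearest site was 38.0 kb away, with 817 bp, and another of 361 bp lay at 57.0 kb. To the right, 4 sites of 320, 1106, 396 and 361 bp lay within 8.08 kb, followed by nothing until 2 sites of 291 and 330 bp at 65.0 and 66.6 kb. The wide site and the 4 sites to its right thus formed a group of 5 over 13.95 kb, with the wide site at its left end, and the group stayed at 5 sites with joining at 25 kb. Sites covered 7.31% of this window and 8.12% of the Tgif1 window, but within 30 kb either side of the wide site the order turned, with 12.8% at Dusp4 and 11.9% at Tgif1.

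At Tgif1 the wide site had a close neighbour on its left and none near on its right. It covered chr17:71198006-71203721, and the window chr17:71150000-71250000 held 5 sites. A site of 449 bp (chr17:71197191-71197639) lay 366 bp to its left, and the next on that side, of 262 bp, lay 13.8 kb away. To the right, sites of 700 and 998 bp lay at 19.1 and 35.8 kb. The wide site held 70.4% of the accessible bases of its window, against 58.1% at Dusp4, 55.4% at Ier2, 41.6% at Junb and 32.6% at Zfp36l1. Without the wide sites, sites covered 2.56% of the Tgif1 window, 3.20% of the Dusp4 window and 9.42% of the Ier2 window. Per 10 kb of window there were 0.5 sites at Tgif1, 0.692 at Dusp4 and 1.5 at Junb. Between the first and last site of the chromosome, there were 0.262 per 10 kb on chromosome 17, 0.205 on chromosome 8 and 0.174 on chromosome 12. The windows were chosen to hold a wide site, so these values are a description.

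**Figure D2:**
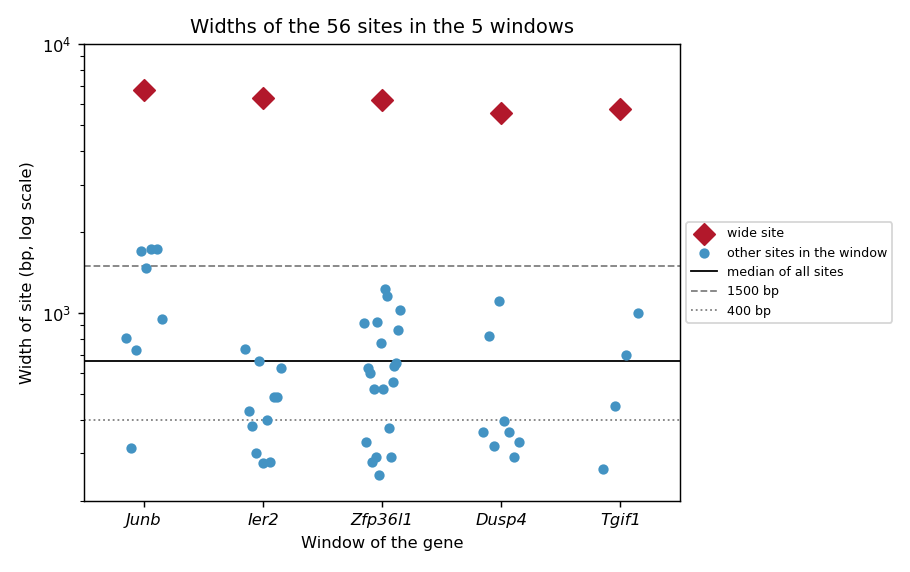
Width in bp, on a log scale, of the 56 sites in the 5 windows. Diamonds are the wide sites and dots the neighbours, and horizontal lines mark the median of all sites (663 bp), 400 bp and 1500 bp. No neighbour is wider than 1734 bp, and the 3 neighbours above 1500 bp are all at Junb.

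Inside the windows, neighbours wider than 1500 bp were found at Junb alone among the 5 genes. Sites beyond the windows are not part of this count. Of the 51 neighbours in the windows, 3 (5.88%, exact binomial 95% interval 1.23 to 16.2%) were wider than 1500 bp, against 11.4% of all sites in the list. All 3 were among the 8 neighbours of Junb (37.5%, 8.52 to 75.5%). None of the 43 neighbours at the other 4 genes was as wide (0 to 8.22%). This division was made after the values were seen, so its intervals test nothing. Sites narrower than 400 bp were 18 of the 51 (35.3%, 22.4 to 49.9%), against 30.5% of all sites. They made up 6 of 8 at Dusp4, 4 of 11 at Ier2, 6 of 20 at Zfp36l1, 1 of 4 at Tgif1 and 1 of 8 at Junb. Both shares over the 51 had intervals that held the share of the whole list. The intervals cover counting error only, and sites of 1 window share their neighbourhood, so they are too narrow.

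The wide sites were then set beside the 854 other sites wider than 2500 bp on chromosomes 1 to 19 and X. The number of neighbours within 25 kb of the centre was 10 at Zfp36l1, 8 at Ier2, 7 at Junb, 4 at Dusp4 and 3 at Tgif1, against a median of 5 and quartiles of 3 and 8 at the other very wide sites. Over all other sites the median was 4. Zfp36l1 had more neighbours than 86.1% of the very wide sites and Tgif1 more than 21.4% of them. The 5 genes thus ran from the lower quartile of the very wide sites to above the upper one. The 13 other sites of at least 5000 bp, a limit chosen after the values were seen, had a median of 6 and ran from 0 to 21.

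**Figure D3:**
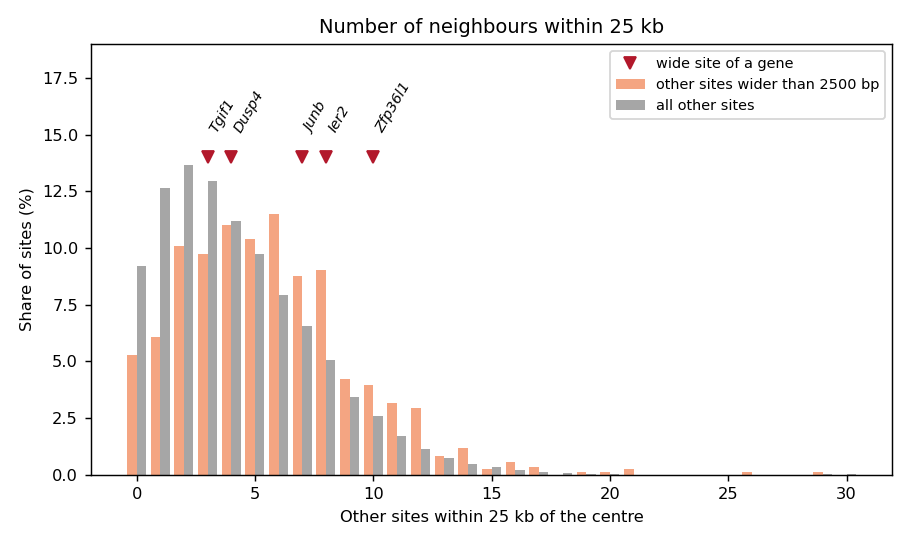
Share of sites, in %, by the number of other sites within 25 kb of their centre, for the 854 other sites wider than 2500 bp (orange) and for all other sites (grey). Triangles mark the numbers of the 5 wide sites, which run from 3 at Tgif1 to 10 at Zfp36l1.

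The widths of these neighbours put Junb apart from the other 4. Within 25 kb, the neighbours' median width was 1472 bp at Junb, 561.5 bp at Zfp36l1, 449 bp at Tgif1, 391 bp at Ier2 and 378.5 bp at Dusp4. At the 809 other very wide sites with a neighbour the median was 718 bp, with quartiles of 518.5 and 918.5 bp. Among the very wide sites, the 12 of at least 5000 bp with a neighbour had a median of 856.2 bp. Over all other sites with a neighbour it was 678 bp. Junb lay above 96.2% of the 809 very wide sites, whereas Dusp4 lay above 10.6%, Ier2 above 11.1%, Tgif1 above 18.2% and Zfp36l1 above 29.4%. At Junb the value depended on the distance chosen, with 1603 bp within 10 kb (2 neighbours) and 728 bp within 50 kb (17 neighbours). In the Junb window, the 3 neighbours wider than 1500 bp lay 4.16 to 8.79 kb from the wide site. Around the windows, sites wider than 1500 bp were counted only in the stretch between the Ier2 and Junb wide sites. At the other 4 genes the median within 50 kb ran from 396 to 576.5 bp.

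The nearest neighbour lay 366 bp away at Tgif1, 986 bp at Zfp36l1, 2469 bp at Ier2, 2491 bp at Dusp4 and 3759 bp at Junb, against a median of 1470 bp at the other very wide sites. For the 13 other sites of at least 5000 bp the median was 406 bp, and over all other sites it was 2096 bp. At Zfp36l1 and Dusp4 the nearest neighbour was itself narrower than 400 bp, and without such sites the distance was 1394 bp at Zfp36l1 and 5650 bp at Dusp4. Junb and Zfp36l1 had a neighbour within 5 kb on both sides, as did 274 of 853 other very wide sites (32.1%, exact binomial 95% interval 29.0 to 35.4%). Ier2, Dusp4 and Tgif1 had one within 5 kb on one side and none within 15 kb on the other, as did 156 of the 853 (18.3%, 15.75 to 21.05%). Over all other sites, 21.1% had a neighbour within 5 kb on both sides and 24.6% had the one-sided pattern. The empty side was the right at Ier2 and Tgif1 and the left at Dusp4. The limits of 5 and 15 kb were chosen after the values were seen, so that these counts are a description. The intervals cover counting error only and treat sites as independent, though nearby sites share flanks, so they are too narrow.

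**Figure D4:**
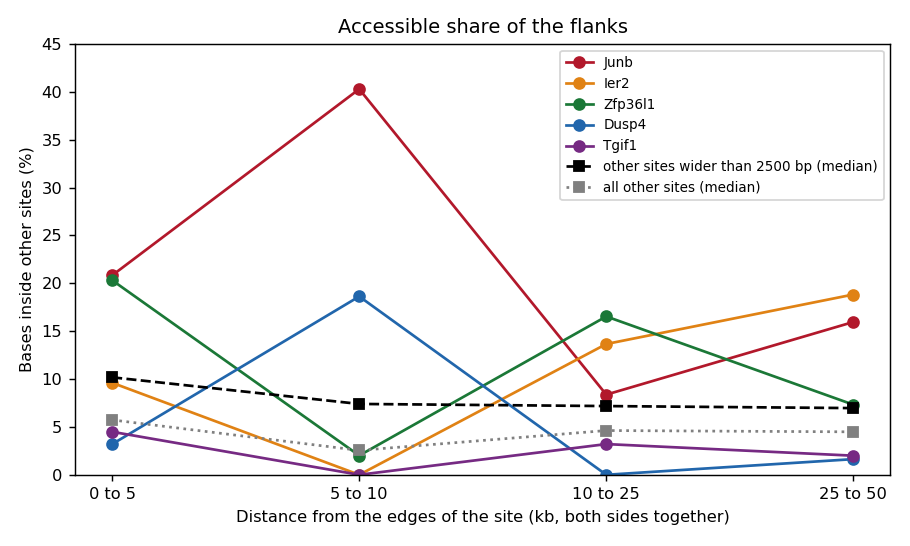
Share of bases, in %, inside other sites at 4 ranges of distance from the edges of the wide site, both sides together. Coloured lines are the 5 genes, and dashed and dotted lines the medians of the 854 other sites wider than 2500 bp and of all other sites. Junb reaches 40.3% at 5 to 10 kb. The highest of the 4 values of Tgif1 is 4.49%, in the first 5 kb, where Junb has 20.8%.

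The flanks differed in how their accessible bases were spread. At 5 to 10 kb from the edges, other sites covered 40.3% of the bases at Junb, 18.6% at Dusp4 and 2.01% at Zfp36l1, and none at Ier2 or Tgif1. The median over the other very wide sites was 7.40% there. In the first 5 kb the shares were 20.8% at Junb, 20.3% at Zfp36l1, 9.61% at Ier2, 4.49% at Tgif1 and 3.20% at Dusp4, against 10.2%. Junb was thus highest at 5 to 10 kb. At 10 to 25 kb the shares were 16.5% at Zfp36l1, 13.7% at Ier2, 8.37% at Junb and 3.21% at Tgif1, with no accessible base at Dusp4, against 7.18%. At 25 to 50 kb they were 18.8% at Ier2, 16.0% at Junb, 7.32% at Zfp36l1, 1.996% at Tgif1 and 1.63% at Dusp4, against 6.97%. Ier2 was thus highest in the outermost range. Over all other sites the medians, from the innermost range outward, were 5.73%, 2.55%, 4.62% and 4.49%. Within 25 kb, accessible bases outside the wide site came to 8.62 kb at Junb, 6.53 kb at Zfp36l1, 3.46 kb at Ier2, 2.18 kb at Dusp4 and 1.41 kb at Tgif1. The median was 4.46 kb at the other very wide sites and 2.75 kb over all other sites.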

How the data were processed

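The authors deposited 1 list of DNaseI sites for the T6 library, which gives the position of each site in bp (3 columns, no header) and no score or count. The strength of a site and the depth of the library are therefore unknown. The submitters' processing notes name BWA 0.6.2, SAMtools and build mm9. How sites were called, with or without the input, is not given in the sources used here. From the list were computed widths, gaps from the edge of one site to the next, numbers of sites by centre within 25 kb, and groups of sites at most 10 kb apart. A site belonged to a window if it overlapped it by 1 bp. The members and lists were chosen with earlier results of these data known. The 5 genes are named by the choice of the windows, and the 3 genes on each side of them by gene order in RefSeq's GRCm38.p6 annotation. Promoter sequences are from RefSeq, GRCm38.p6, and motifs were matched exactly on both strands. Calculations were made in Python 3.11.15 with numpy 2.4.6, scipy 1.17.1, pandas 2.3.3 and, for the figures, matplotlib 3.10.9. The functions were tested on simulated data.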

Additional observations from a re-analysis of the deposited data

How the results depend on the processing

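Each alternative was recomputed as a total or median over the 5 genes, and a value was taken as close when it stayed within 1.5 times of the main one. Of 16 recomputed values, 11 were close, 5 moved by more and none reversed, though widths, gaps and counts have no direction to reverse. The number of sites in the 5 windows was 56, 38 with sites of at least 400 bp and 24 with sites above the median width. The median number of neighbours was 7 within 25 kb, 2 within 10 kb, 17 within 50 kb and 4 among sites of at least 400 bp. The median group held 5 sites with joining at 10 kb and 21 with joining at 25 kb, where Junb had 41 and Ier2 25. These shifts follow from the distances and limits themselves. All 56 sites lay wholly inside their window. The median covered share of the windows was 14.6%, and 18.9% for 30 kb either side of the wide site. Motif and promoter pairs came to 7 on both strands and 6 on the strand of the gene. For single genes, 50 of 75 recomputed values were close and 25 were not. No paired analysis was possible because there was 1 library. Width depends on the caller and on depth, which are unknown, so a stricter threshold by signal was not run. Reads piled up on repeats and the copy number of these loci were not tested.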

Other observations

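Over chromosomes 1 to 19 and X, 2 pairs of sites of at least 5000 bp lay within 1 Mb of each other. One was the pair at Ier2 and Junb, 308.1 kb apart, and the other a pair on chromosome 12, 267.6 kb apart (starting at 114383791 and 114656655), which includes the widest site of the list. The limits were chosen after the values were seen, and no test was made.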
